A study of Mus musculus with 16 samples.

Results

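Chemokines and chemokine receptors were followed in the mouse prostate with an RNA sequencing table of 29535 genes. The set holds every row whose symbol is Ccl, Cxcl, Ccr or Cxcr with a number and at most 1 further letter, plus Cx3cl1, Cx3cr1, Xcl1 and Xcr1. This gave 57 genes, of which 39 encode ligands and 18 encode receptors. A gene was called expressed when its mean over the 16 libraries was at least 3.32 on the deposited log2 scale. By this rule 37 of the 57 were expressed, 25 ligands and 12 receptors, and the other 20 lay under the level. All animals were aged 12 months and of a hybrid 129/SvImJ and C57Bl/6J background. The 4 groups were +/+ (wild type) mice given vehicle (n = 3), +/+ mice given finasteride (n = 5), -/- mice given vehicle (n = 3) and -/- mice given finasteride (n = 5), where -/- marks mice homozygous for a mutated allele of a single gene. Finasteride inhibits 5-alpha-reductase, the enzyme that makes dihydrotestosterone, the main androgen of the prostate. Dose, length of treatment and prostate lobe are not given in the sources used here. The labels do not tell separate animals from repeat libraries, so the p-values speak only of the spread among these libraries, which may be technical. The RNA came from whole tissue, in which fewer cells of a type and less RNA per cell cannot be told apart.

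Chemokines are small secreted proteins that guide the movement of leukocytes and other cells along concentration gradients. They are sorted into CC, CXC, C and CX3C families by the spacing of their conserved cysteines, and they signal through G protein-coupled receptors of the matching family. Inflammatory chemokines are induced by cytokines such as interferon-gamma and tumour necrosis factor, whereas homeostatic chemokines place lymphocytes and progenitor cells in resting tissue. In the prostate, epithelial, stromal and endothelial cells can make ligands, and the receptors sit mainly on leukocytes.

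Values are the deposited normalised log2 values, and a difference is given in log2 units ± SE from a limma fit to 16506 expressed genes, with p-values adjusted over all of them. Read depth per library is unknown, and no scaling by gene length can be assumed, so levels are compared between groups and not between genes. Values taken out of log2 summed to log2 totals of 24.07 to 24.16 in mutant finasteride libraries and 24.31 to 24.55 in the others. In 5 libraries (wild type vehicle 3, wild type finasteride 4, mutant vehicle 3, and mutant finasteride 3 and 4) the profile lay within a residual of 0.0626 to 0.0916 log2 units of a weighted mix of a pair of libraries of its own group. Results are therefore also given for the other 11 libraries (n = 2, 4, 2 and 3). On the first principal component, which held 50.7% of the variance, wild type finasteride 2 (29.5) stood apart from its group (65.5 to 78.3), and mutant finasteride 2 (-37.5) from its own (-85.02 to -70.7). All 6 luminal epithelial markers were expressed, among them the prostate secretory protein gene Pbsn. All 8 seminal vesicle genes and 4 of 5 urothelial markers were expressed as well, so these markers alone do not settle the prostate label. RNA of seminal vesicle genes differed between libraries, with summed log2 levels of 9.87 to 21.7 in wild type on vehicle, 9.45 to 14.3 in wild type on finasteride, 16.6 to 17.9 in the mutant on vehicle and 16.7 to 21.5 in the mutant on finasteride. Its part in the results below was not tested.

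Across the expressed chemokines and receptors, finasteride was followed by opposite movements in the 2 genotypes. In wild type 17 of 37 fell and 0 rose, while in the mutant 27 rose and 0 fell, a split that became 19 higher and 3 lower after quantile normalization. The group mean was highest in mutant mice on finasteride for 30 of the 37 genes and lowest in wild type mice on finasteride for 24. The remaining highest means were 5 in wild type on vehicle and 2 in the mutant on vehicle. Over all genes tested, the mutant finasteride group was highest for 29.6% and the wild type finasteride group lowest for 27.1%.

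The counts stood against the following background. In wild type, 45.9% of expressed members fell after finasteride, against 21.7% of all genes tested, and 0% rose, against 18.4%. The median difference of the members was -0.753, beside -0.0219 over all genes. In the mutant, 73% rose, against 25.7% of all genes tested, and 0% fell, against 22.8%, with a median difference of 1.09 beside -0.0127. The difference between these effects (mutant minus wild type, the interaction) was positive and passed the threshold for 30 members, 81.1%, against 29.4% of all genes, and negative for 0, against 27.1%. The 2 finasteride effects use separate libraries, and the interaction tests the difference itself. Some members, named further below, reached the expressed level only through high values in the mutant on finasteride. Their calls in comparisons that hold that group are not independent of the rule.

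Comparing genotypes, 34 of 37 members were higher in the mutant than in wild type when both received finasteride, 91.9% against 33.2% of all genes tested, and 0 were lower, against 30.4%. In 31 of the 37 every mutant library on finasteride lay above every wild type library on finasteride, a separation seen for 21.3% of all genes tested. On vehicle the picture was different. Only Cxcl9, Cxcl10 and Ccl5 were higher in the mutant (8.11%, against 14.6% of all genes) and 9 members were lower (24.3%, against 17.5%), shares that lie near the background. Comparisons that share a group share its libraries and are not independent of each other.

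Fewer calls were made on the 11 libraries that were not near mixtures. There 5 members fell and 0 rose in wild type after finasteride (5.06% and 3.65% of all genes tested), and 20 rose and 0 fell in the mutant (11% and 9.25%). The genotype comparison on finasteride had 32 higher and 0 lower (21.9% and 19.1%), the interaction 24 higher and 0 lower (17.1% and 12.3%), and the genotype comparison on vehicle 0 higher and 5 lower (3.94% and 5.33%). Each of these calls was also made, in the same direction, on all 16 libraries. At an unadjusted p under 0.05, limma gave 0 members rising in wild type and 0 falling in the mutant, on 16 and on 11 libraries alike. After quantile normalization 11 of the 17 falls in wild type, 19 of the 27 rises in the mutant, 29 of the 34 higher calls on finasteride and 21 of the 30 interactions were kept, and the genotype comparison on vehicle became 8 higher and 8 lower. The calls lost to it included the falls of Ccl6, Ccl7, Cxcl9, Cxcl10, Cxcr4 and Cxcr6 in wild type and the rises of Ccl2, Ccl4, Ccl7, Ccl12, Ccl22, Ccr2 and Cxcr5 in the mutant. On finasteride the higher calls of Ccl11, Ccl24, Ccr1, Ccr9 and Ccr10 were lost, on vehicle the lower call of Ccr1, and among interactions those of Ccl4, Ccl21a, Ccl22, Ccr9, Cxcl10, Cxcl15, Cxcr3 and Cxcr5. All genes tested were then called higher and lower in 17.3% and 14.7% for genotype on vehicle, 22.2% and 16.3% for finasteride in wild type, 19.6% and 28.4% for finasteride in the mutant, 26.1% and 37% for genotype on finasteride and 22.1% and 33.6% for the interaction.

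**Figure D1:**
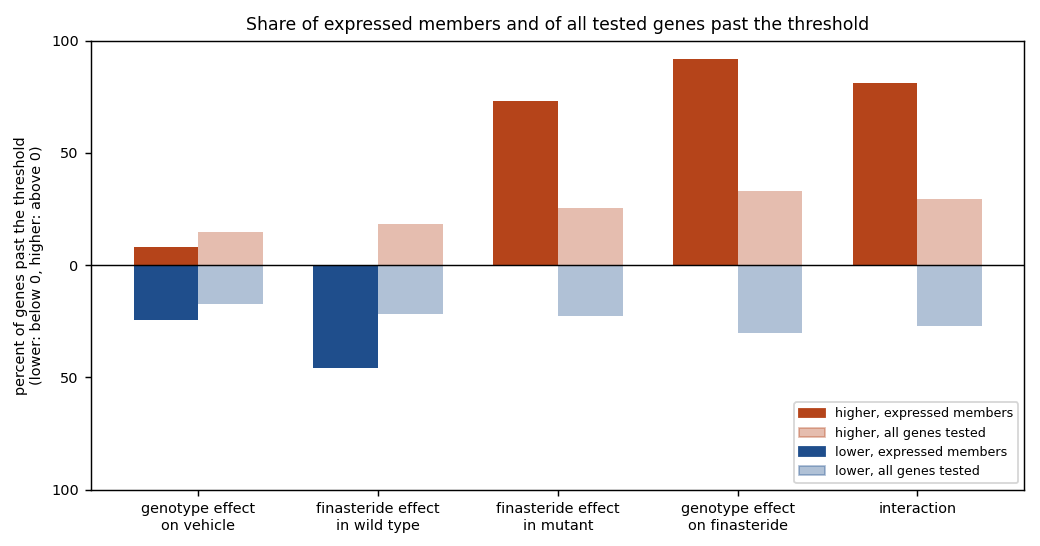
Percent of the 37 expressed chemokines and receptors (dark bars) and of all 16506 genes tested (pale bars) that passed the adjusted threshold in each comparison, with higher calls above 0 and lower calls below 0. The dark bars reach 45.9% lower for finasteride in wild type, 73% higher for finasteride in the mutant and 91.9% higher for genotype on finasteride.

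**Figure D2:**
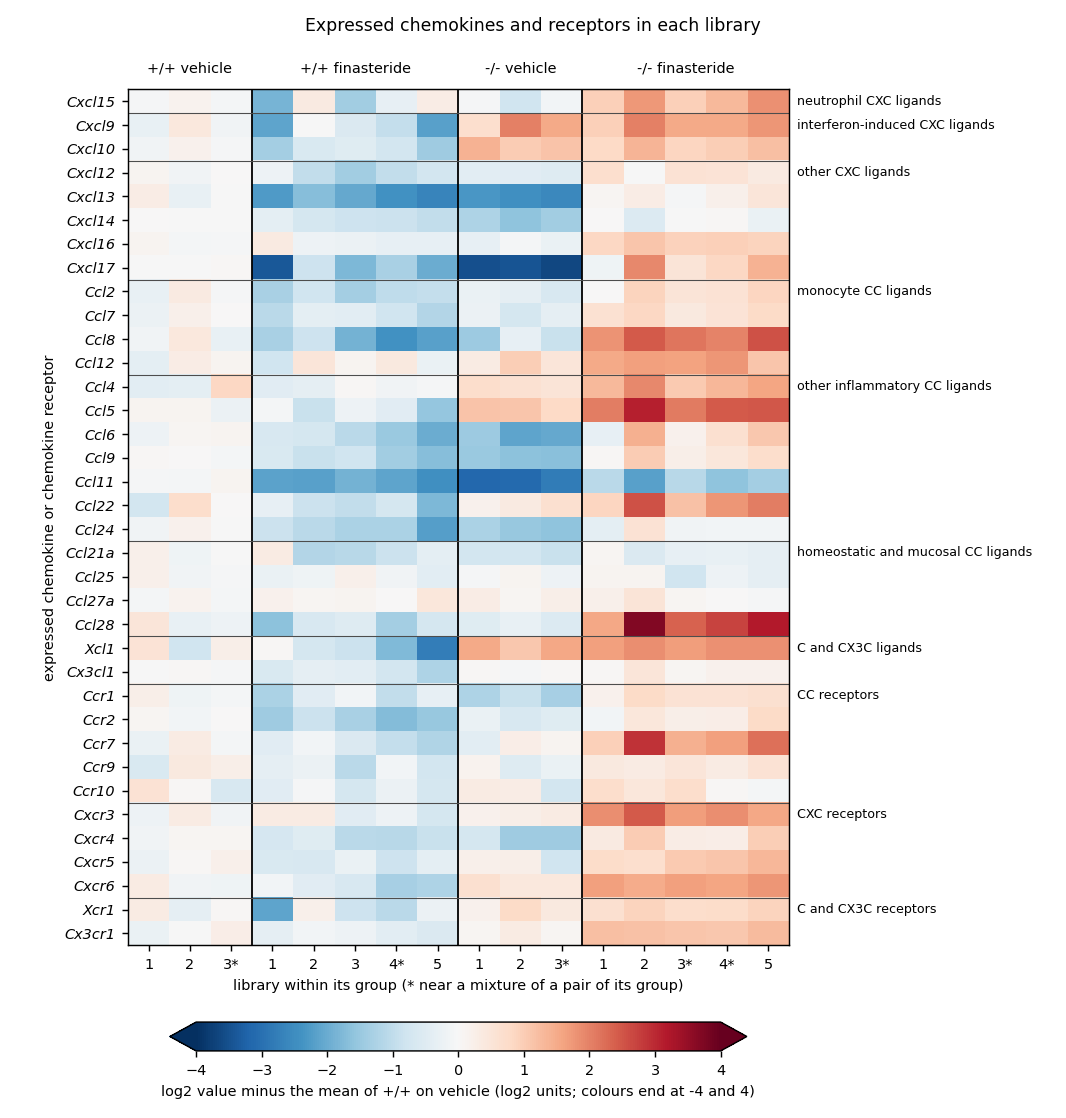
Each row is 1 of 36 expressed chemokines and receptors and each column a library; colour gives the log2 value minus the gene's mean in wild type on vehicle, with colours ending at -4 and 4, and an asterisk marks the 5 libraries near a mixture. Blue prevails in wild type on finasteride, where 24 of the 37 expressed genes had their lowest mean, and red in the mutant on finasteride, where 30 had their highest.

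Promoter sequences are shown for 4 CXC ligands because they carry the opposite genotype differences on vehicle: Cxcl9 and Cxcl10 were higher in the mutant, Cxcl13 and Cxcl14 lower. Each line gives the 250 bases before the annotated start, 5′ to 3′ on the gene's strand, from RefSeq on build GRCm38.p6. Cxcl9 (chr5:92328080-92328329, minus strand) and Cxcl10 (chr5:92348890-92349139, minus strand) are neighbours, Cxcl13 lies at chr5:95956689-95956938 (plus strand) and Cxcl14 at chr13:56296552-56296801 (minus strand). Capitals mark letter matches, on either strand, to the interferon-stimulated response element, the NF-kB consensus, the gamma-activated site (TTCNNNGAA) or the AP-1 site (TGANTCA).
Cxcl9: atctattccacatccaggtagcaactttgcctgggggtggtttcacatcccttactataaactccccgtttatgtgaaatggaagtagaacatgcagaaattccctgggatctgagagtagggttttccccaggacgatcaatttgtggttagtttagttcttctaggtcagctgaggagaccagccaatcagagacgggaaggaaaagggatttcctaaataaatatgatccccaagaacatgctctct
Cxcl10: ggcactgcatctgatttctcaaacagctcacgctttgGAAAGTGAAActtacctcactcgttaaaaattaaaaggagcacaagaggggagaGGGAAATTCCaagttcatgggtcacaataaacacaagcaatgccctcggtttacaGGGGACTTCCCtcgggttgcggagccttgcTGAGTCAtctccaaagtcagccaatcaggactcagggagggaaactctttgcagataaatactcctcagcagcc
Cxcl13: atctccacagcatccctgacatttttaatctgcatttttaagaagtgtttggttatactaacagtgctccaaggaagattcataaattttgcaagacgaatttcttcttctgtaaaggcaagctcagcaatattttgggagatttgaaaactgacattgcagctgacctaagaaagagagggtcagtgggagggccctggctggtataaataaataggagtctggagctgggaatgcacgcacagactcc
Cxcl14: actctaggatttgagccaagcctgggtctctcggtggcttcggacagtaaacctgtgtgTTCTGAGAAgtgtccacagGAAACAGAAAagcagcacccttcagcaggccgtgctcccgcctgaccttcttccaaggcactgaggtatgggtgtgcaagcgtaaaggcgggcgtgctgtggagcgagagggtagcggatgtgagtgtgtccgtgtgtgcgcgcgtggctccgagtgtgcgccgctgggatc

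In the Cxcl10 window the interferon-stimulated response element match lies 213 to 204 bases before the start, NF-kB matches lie at 159 to 150 and, overlapping each other, at 104 to 95 and 103 to 94, and the AP-1 match at 74 to 68. Cxcl14 held an interferon-stimulated response element match at 172 to 163 and a gamma-activated site match at 191 to 183. The Cxcl9 and Cxcl13 windows held none of these letters. The hexamer AGAACA of the androgen receptor element, not capitalised for itself, was matched in Cxcl9 at 164 to 159 and 14 to 9 and in Cxcl14 at 193 to 188, where it overlaps the gamma-activated site match. Promoters were found for 25 of the 37 expressed members. Of these 25, the interferon-stimulated response element was matched in 2 (3.46% of all 27025 genes with a promoter), NF-kB in 3 (8.23%), the gamma-activated site in 1 (8.13%), AP-1 in 3 (7.82%) and AGAACA in 4 (18.2%). A match describes letters and is no measure of binding.

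The interferon-induced ligands Cxcl9 and Cxcl10, which attract T and NK cells through the receptor Cxcr3, were higher in the mutant with and without the drug. Cxcl10 was 5.12, 5.43 and 5.21 in wild type on vehicle and 6.65, 6.27 and 6.41 in the mutant on vehicle. On finasteride it was 3.88, 4.65, 4.78, 4.52 and 3.84 in wild type and 6.06, 6.63, 6.10, 6.24 and 6.46 in the mutant. No mutant library overlapped a wild type library under either treatment. The genotype difference was 1.19 ± 0.25 on vehicle (adjusted p = 0.00206) and 1.97 ± 0.19 on finasteride (adjusted p = 4.49e-07). Cxcl10 fell in wild type, by 0.92 (SE 0.22, adjusted p = 0.0048), and differed by -0.14 in the mutant (adjusted p = 0.621), a difference called as a fall of 0.68 after quantile normalization. On 11 libraries the vehicle difference (adjusted p = 0.0751) and the fall in wild type (0.0754) did not pass. Its interaction of 0.78 ± 0.32 (adjusted p = 0.0465) turned to -0.24 after quantile normalization and was lost without wild type vehicle 1, 2 or 3, wild type finasteride 1 or 5, mutant vehicle 2 or 3, or mutant finasteride 2, 4 or 5.

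Cxcl9 was 4.80, 5.52 and 4.97 in wild type on vehicle and 5.75, 7.11 and 6.63 in the mutant on vehicle. With finasteride the wild type libraries read 2.98, 5.08, 4.50, 4.14 and 2.92 and the mutant libraries 6.06, 7.10, 6.61, 6.62 and 6.88. Here too every mutant library lay above every wild type library of the same treatment, with a wide spread in wild type on finasteride. The genotype difference on finasteride was 2.73 ± 0.39 (adjusted p = 1.99e-05). On vehicle it was 1.40 ± 0.50 (adjusted p = 0.0433), and the call ended on 11 libraries (0.328) and when wild type vehicle 1 or 3, wild type finasteride 4, mutant vehicle 2 or 3, or mutant finasteride 3, 4 or 5 was left out, reaching 1.09 (0.167) without mutant vehicle 2. The fall in wild type, of 1.17 (SE 0.45, adjusted p = 0.0479), did not pass on 11 libraries (0.206), after quantile normalization, or without wild type vehicle 1, 2 or 3, wild type finasteride 1, 4 or 5, mutant vehicle 3, or mutant finasteride 3, 4 or 5.

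Their receptor Cxcr3, found on activated T and NK cells, followed another course. Its means were 4.34 ± 0.29 (SD) and 4.2 ± 0.46 in wild type on vehicle and finasteride, and 4.58 ± 0.09 and 6.22 ± 0.35 in the mutant. Cxcr3 rose in the mutant by 1.64 ± 0.26 (adjusted p = 0.000106), whereas the genotype difference on vehicle was 0.24 (adjusted p = 0.566). The third ligand, Cxcl11, lay under the expressed level.

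Cxcl17, a mucosal ligand made by epithelia, had the widest span of group means among the expressed members. Its values were 6.87, 6.87 and 6.92 in wild type on vehicle and 3.36, 3.43 and 3.23 in the mutant on vehicle. Finasteride libraries read 3.50, 6.05, 5.09, 5.58 and 4.91 in wild type and 6.71, 8.79, 7.42, 7.72 and 8.27 in the mutant. The mutant libraries lay below wild type on vehicle and above it on finasteride. The genotype difference was -3.55 ± 0.53 on vehicle (adjusted p = 0.000145) and 2.75 ± 0.41 on finasteride (3.43e-05). Cxcl17 rose in the mutant by 4.44 ± 0.48 (adjusted p = 3.89e-06) and fell in wild type by 1.86 (SE 0.48, 0.00674; 0.0821 on 11 libraries), an interaction of 6.30 ± 0.67 (2.99e-06).

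Cxcl13, the B cell attractant that acts on Cxcr5, also changed the order of the genotypes between treatments, with tighter groups. It was 7.50, 6.93 and 7.2 in wild type on vehicle and 4.94, 5.49, 5.16, 4.79 and 4.57 in wild type on finasteride. In the mutant it was 4.88, 4.75 and 4.64 on vehicle and 7.30, 7.52, 7.17, 7.40 and 7.71 on finasteride. Wild type on vehicle and mutant on finasteride overlapped, and both stood clear of the other groups. Cxcl13 was lower in the mutant on vehicle (-2.45 ± 0.22, adjusted p = 1.41e-06) and fell in wild type after finasteride (-2.22 ± 0.20, 6.71e-06). It rose in the mutant (2.66 ± 0.20, 1.09e-07), and these 3 calls were kept on 11 libraries and in all fits that left out 1 library. The receptor Cxcr5 had means of 3.88 ± 0.22 and 3.33 ± 0.23 in wild type on vehicle and finasteride and 3.77 ± 0.58 and 4.86 ± 0.28 in the mutant. Cxcr5 rose in the mutant by 1.09 ± 0.25 (adjusted p = 0.0022; 0.12 on 11 libraries), and an exon overlap of 110 bases with Bcl9l on the other strand leaves its counts uncertain, since use of strand is not stated.

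Cxcl14, a ligand of epithelium and stroma, was 10.25, 10.22 and 10.23 in wild type on vehicle and 9.0, 8.63 and 8.85 in the mutant on vehicle. After finasteride it was 9.85, 9.54, 9.42, 9.36 and 9.26 in wild type and 10.25, 9.68, 10.21, 10.28 and 9.96 in the mutant. On vehicle the genotypes did not overlap, and on finasteride mutant library 2 lay among the wild type values. Cxcl14 was lower in the mutant on vehicle (-1.41 ± 0.16, adjusted p = 1.16e-05) and rose there after finasteride (1.25 ± 0.14, 6.59e-06). It fell in wild type by 0.75 (SE 0.14, 0.00105), and the genotype difference on finasteride, 0.59 ± 0.12 (0.000703), did not pass on 11 libraries (0.0555).

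Cxcl12 (stromal cell-derived factor 1) holds leukocytes and progenitor cells in tissue through Cxcr4. It read 10.38, 10.12 and 10.28 in wild type on vehicle and 10.06, 9.27, 8.88, 9.27 and 9.52 on finasteride. The mutant read 9.83, 9.81 and 9.76 on vehicle and 10.94, 10.24, 10.84, 10.79 and 10.62 on finasteride. Every finasteride library lay below the vehicle libraries in wild type and above them in the mutant. Cxcl12 fell in wild type by 0.86 (SE 0.20, adjusted p = 0.0037) and rose in the mutant by 0.89 ± 0.20 (0.00197). Both calls ended on 11 libraries (0.0892 and 0.0889), while the genotype difference on finasteride of 1.29 ± 0.17 was kept (0.00428). Cxcr4 averaged 5.64 ± 0.13 and 4.79 ± 0.27 in wild type on vehicle and finasteride, and 4.46 ± 0.42 and 6.22 ± 0.38 in the mutant. It was lower in the mutant on vehicle (-1.18 ± 0.26, adjusted p = 0.003) and rose there after finasteride (1.76 ± 0.23, 2.47e-05), the former lost on 11 libraries (0.0885) and the latter kept. Cxcr4 also fell in wild type, by 0.85 (SE 0.23, 0.00986; 0.123 on 11 libraries).

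Cxcl16 is a membrane-bound ligand of Cxcr6, a receptor of tissue T and NK cells. Cxcl16 averaged 7.99 ± 0.10 and 7.85 ± 0.28 in wild type on vehicle and finasteride and 7.78 ± 0.13 and 8.93 ± 0.11 in the mutant, rising only in the mutant by the test (1.15 ± 0.14, adjusted p = 8.32e-06; interaction 1.3 ± 0.19, 5.14e-05). Its exons overlap Zmynd15 on the other strand over 552 bases, so its counts are uncertain. Cxcr6 was 5.35, 4.90 and 4.85 in wild type on vehicle and 4.93, 4.57, 4.38, 3.71 and 3.81 on finasteride. Mutant libraries gave 5.68, 5.44 and 5.45 on vehicle and 6.66, 6.51, 6.66, 6.62 and 6.81 on finasteride. The 5 mutant finasteride libraries lay close together above all others. Cxcr6 rose in the mutant by 1.13 ± 0.24 (adjusted p = 0.00118) and was higher than in wild type on finasteride by 2.37 ± 0.20 (1.15e-07). Its fall of 0.75 in wild type (SE 0.24, 0.0201) did not pass on 11 libraries (0.147) or without wild type vehicle 1 (0.11).

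**Figure D3:**
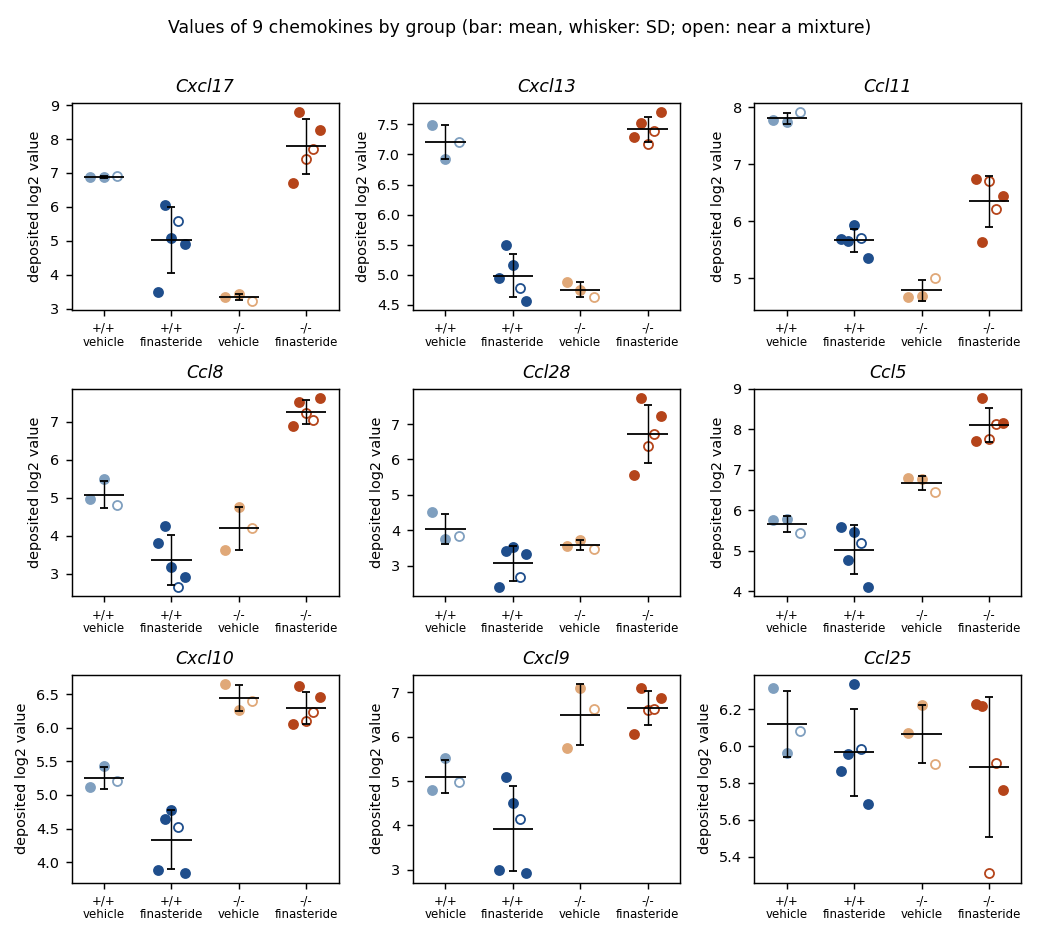
Deposited log2 values of 9 ligands in each library by group, with the mean as a bar, the SD as a whisker and open points for libraries near a mixture. Cxcl13 shows 2 groups near 7 (wild type on vehicle, mutant on finasteride) and 2 near 5; Cxcl10 separates by genotype under both treatments, and the groups of Ccl25 overlap.

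Of the CXC ligands listed as attracting neutrophils, only Cxcl15, an epithelial ligand, was expressed. It was 5.43, 5.63 and 5.42 in wild type on vehicle and 5.46, 4.71 and 5.40 in the mutant on vehicle. On finasteride it was 3.62, 5.87, 4.10, 5.16 and 5.78 in wild type and 6.46, 7.22, 6.44, 6.78 and 7.32 in the mutant. The wild type values on finasteride straddled those on vehicle, and the mutant values lay above all others. Cxcl15 rose in the mutant by 1.65 ± 0.43 (adjusted p = 0.00544; 0.0593 on 11 libraries) and was higher there than in wild type on finasteride by 1.94 ± 0.38 (0.000358). Cxcl1, Cxcl2, Cxcl3, Cxcl5 and the receptors Cxcr1 and Cxcr2 lay under the level. Of 8 neutrophil markers 2 were expressed, and S100a8, S100a9 and Ly6g were not. Both expressed markers rose in the mutant after finasteride (25.7% of all genes tested), 1 on 11 libraries and 0 after quantile normalization. Between genotypes on finasteride, 1 was higher and 1 lower in the mutant (33.2% and 30.4% of all genes).

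The monocyte-attracting CC ligands Ccl2, Ccl7, Ccl8 and Ccl12 all rose in the mutant after finasteride (25.7% of all genes tested). In wild type 3 of the 4 fell (21.7%). On 11 libraries 2 rose in the mutant and 1 fell in wild type (11% and 5.06%). After quantile normalization these counts were 1 and 2 (19.6% and 16.3%). Ccl8 was 4.96, 5.49 and 4.80 in wild type on vehicle and 3.79, 4.25, 3.18, 2.65 and 2.91 on finasteride. The mutant gave 3.63, 4.77 and 4.19 on vehicle and 6.88, 7.52, 7.23, 7.05 and 7.62 on finasteride. All 5 mutant libraries on finasteride stood above every other library. Ccl8 fell in wild type by 1.73 (SE 0.34, adjusted p = 0.00135), rose in the mutant by 3.07 ± 0.34 (5.54e-06) and differed between genotypes on finasteride by 3.91 ± 0.30 (2.93e-08), all kept on 11 libraries.

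Ccl2, a ligand of Ccr2, averaged 4.23 ± 0.33 and 3.14 ± 0.23 in wild type on vehicle and finasteride and 3.81 ± 0.19 and 4.80 ± 0.34 in the mutant. The corresponding means of Ccl7 were 3.90 ± 0.22, 3.12 ± 0.36, 3.46 ± 0.23 and 4.52 ± 0.17, and those of Ccl12 were 3.44 ± 0.35, 3.44 ± 0.53, 4.04 ± 0.34 and 4.97 ± 0.24. Ccl2 and Ccl7 fell in wild type and rose in the mutant. Ccl12 rose in the mutant (0.93 ± 0.28, adjusted p = 0.0131) and differed by -0.01 in wild type (0.986), with an interaction of 0.94 that missed the threshold (0.0561). On 11 libraries the falls of Ccl2 (0.0603) and Ccl7 (0.143) and the rises of Ccl2 (0.097) and Ccl12 (0.211) did not pass, and the fall of Ccl7 also failed without wild type vehicle 2 (0.0521) and the rise of Ccl12 without mutant vehicle 1 or 3. All 4 stayed higher in the mutant on finasteride (33.2% of all genes tested). The difference was 1.66 ± 0.20 for Ccl2 (adjusted p = 3.19e-06), 1.40 ± 0.19 for Ccl7 (1.26e-05) and 1.53 ± 0.24 for Ccl12 (6.34e-05).

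Ccr2, the receptor that brings monocytes out of the bone marrow into tissue, was 7.48, 7.27 and 7.40 in wild type on vehicle and 5.95, 6.53, 6.09, 5.66 and 5.88 on finasteride. In the mutant it was 7.11, 6.75 and 6.88 on vehicle and 7.27, 7.85, 7.61, 7.64 and 8.16 on finasteride. The treatments did not overlap in either genotype. Ccr2 fell in wild type by 1.36 (SE 0.20, adjusted p = 0.00016; 0.0252 on 11 libraries) and rose in the mutant by 0.79 ± 0.20 (0.00369; 0.0596 on 11 libraries).

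Among the other inflammatory CC ligands, 7 were expressed. All 7 rose in the mutant after finasteride (25.7% of all genes tested) and were higher there than in wild type on the drug (33.2%). In wild type 4 fell (21.7%). On 11 libraries these counts were 6, 6 and 1 (11%, 21.9% and 5.06%), and after quantile normalization 5, 5 and 3 (19.6%, 26.1% and 16.3%). Ccl4 and Ccl22 reached the expressed level only through the mutant on finasteride. Ccl5 (RANTES), made by T and NK cells, was 5.77, 5.78 and 5.45 in wild type on vehicle and 6.79, 6.77 and 6.47 in the mutant on vehicle. On finasteride it was 5.58, 4.78, 5.47, 5.20 and 4.11 in wild type and 7.71, 8.77, 7.75, 8.14 and 8.15 in the mutant. The genotypes did not overlap under either treatment. Ccl5 was higher in the mutant by 1.01 ± 0.33 on vehicle (adjusted p = 0.0289) and by 3.08 ± 0.26 on finasteride (7.83e-08), and rose there by 1.43 ± 0.30 (0.00109). The vehicle call ended on 11 libraries (0.212) and without wild type vehicle 1 or 3 or mutant vehicle 1 or 2.

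Ccl4, an inflammatory ligand made by macrophages, T cells and NK cells, was 2.71, 2.76 and 3.95 in wild type on vehicle and 2.68, 2.76, 3.19, 3.01 and 3.09 on finasteride. The mutant had 3.85, 3.73 and 3.66 on vehicle and 4.43, 5.06, 4.17, 4.46 and 4.72 on finasteride. Wild type vehicle 3 stood well above its 2 group mates. Ccl4 rose in the mutant by 0.82 ± 0.28 (adjusted p = 0.0232), a call lost without mutant vehicle 2 or 3 and after quantile normalization. Its interaction of 1.01 ± 0.39 (0.0379) was lost on 11 libraries (0.193) and without wild type finasteride 1 or 2, mutant vehicle 1, 2 or 3, or mutant finasteride 2 or 5, and it was 0.61 (0.133) without wild type vehicle 3.

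Ccl11 (eotaxin), which attracts eosinophils through Ccr3, was 7.77, 7.74 and 7.92 in wild type on vehicle and 4.67, 4.69 and 5.00 in the mutant on vehicle. Finasteride libraries gave 5.68, 5.65, 5.93, 5.70 and 5.35 in wild type and 6.75, 5.63, 6.70, 6.21 and 6.45 in the mutant. Wild type on vehicle stood above all other libraries and the mutant on vehicle below them. Ccl11 was lower in the mutant on vehicle (-3.02 ± 0.24, adjusted p = 4.82e-07), fell in wild type after finasteride (-2.15 ± 0.21, 1.42e-05) and rose in the mutant (1.56 ± 0.21, 3.45e-05), all kept on 11 libraries. The genotype difference on finasteride, 0.68 ± 0.18 (0.00455), ended on 11 libraries (0.0739) and after quantile normalization. Ccl24, another eotaxin, averaged 5.39 ± 0.15 and 4.06 ± 0.51 in wild type on vehicle and finasteride and 3.93 ± 0.18 and 5.37 ± 0.36 in the mutant. Ccl24 fell in wild type (-1.33 ± 0.27, 0.00156) and rose in the mutant (1.43 ± 0.27, 0.0005), and on 11 libraries the fall (0.0574) and its lower vehicle level in the mutant (-1.46 ± 0.30, 0.00182; 0.0835) did not pass.

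Ccl6 and Ccl9, rodent ligands of Ccr1 made by myeloid cells, moved in parallel. Ccl6 averaged 8.00 ± 0.17 and 6.82 ± 0.56 in wild type on vehicle and finasteride and 6.13 ± 0.36 and 8.59 ± 0.70 in the mutant. Ccl9 averaged 7.16 ± 0.07 and 6.09 ± 0.46 in wild type and 5.56 ± 0.10 and 7.65 ± 0.38 in the mutant. Both were lower in the mutant on vehicle, with differences of -1.87 ± 0.40 for Ccl6 (adjusted p = 0.00232; 0.0852 on 11 libraries) and -1.60 ± 0.27 for Ccl9 (0.000316; 0.0255). Both rose in the mutant after finasteride, Ccl6 by 2.46 ± 0.36 (5.55e-05) and Ccl9 by 2.10 ± 0.24 (6.28e-06). Their falls in wild type (Ccl6 -1.18 ± 0.36, 0.0165; Ccl9 -1.07 ± 0.24, 0.0027) did not pass on 11 libraries (0.177 and 0.0704), and that of Ccl6 failed without wild type vehicle 3 (0.0589). Ccr1 itself averaged 4.51 ± 0.21 and 3.88 ± 0.48 in wild type and 3.36 ± 0.22 and 5.05 ± 0.23 in the mutant. Ccr1 was lower in the mutant on vehicle (-1.15 ± 0.28, 0.00529; 0.119 on 11 libraries) and rose there after the drug (1.69 ± 0.25, 6.05e-05). Ccl22, a dendritic cell ligand of Ccr4, averaged 3.35 ± 0.73 and 2.41 ± 0.54 in wild type and 3.74 ± 0.23 and 5.03 ± 0.67 in the mutant. Ccl22 rose in the mutant by 1.29 ± 0.40 (0.0158), which failed on 11 libraries (0.0908) and without mutant vehicle 1 (0.0606).

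The homeostatic and mucosal CC ligands behaved unevenly. Ccl28, a mucosal ligand of Ccr10 and Ccr3 that attracts plasma cells, was 4.51, 3.75 and 3.85 in wild type on vehicle and 2.40, 3.40, 3.53, 2.68 and 3.33 on finasteride. In the mutant Ccl28 was 3.54, 3.73 and 3.48 on vehicle and 5.57, 7.73, 6.38, 6.73 and 7.22 on finasteride. The 5 mutant finasteride libraries lay above all others. It rose in the mutant by 3.14 ± 0.40 (adjusted p = 1.62e-05) and was higher there than in wild type on finasteride by 3.66 ± 0.34 (2.7e-07), while the differences in wild type (-0.97, 0.0622) and on vehicle (-0.45, 0.472) did not pass. Ccl21a, the lymphatic endothelial ligand of Ccr7, averaged 8.01 ± 0.18 and 7.36 ± 0.62 in wild type on vehicle and finasteride and 7.22 ± 0.08 and 7.70 ± 0.23 in the mutant. For Ccl21a only the interaction passed (1.13 ± 0.37, 0.0172; 0.168 on 11 libraries), and its reads can be shared with the near-identical Ccl21b and Ccl21c.

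Ccl25 (thymus-expressed chemokine, a ligand of Ccr9) and Ccl27a (a skin ligand of Ccr10) passed in no comparison. Ccl25 averaged 6.12 ± 0.18 and 5.97 ± 0.24 in wild type on vehicle and finasteride and 6.07 ± 0.16 and 5.89 ± 0.38 in the mutant. Ccl27a averaged 6.10 ± 0.13 and 6.27 ± 0.16 in wild type and 6.29 ± 0.11 and 6.25 ± 0.23 in the mutant. After quantile normalization both were called lower in the mutant after finasteride (Ccl25 -0.74, Ccl27a -0.59), lower in the mutant than in wild type on finasteride, and negative in the interaction, and Ccl27a was called higher in wild type after finasteride (0.54). Both share a stretch of exon with a gene on the other strand (56 bases of Ccl25 with Elavl1, 8 of Ccl27a with Il11ra1), and Ccl27a has a near-identical copy, Ccl27b.

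The receptors of this branch had means over all libraries near the expressed level (3.83 for Ccr7, 3.41 for Ccr9 and 3.81 for Ccr10). Ccr7, which leads dendritic cells and naive T cells to lymphoid tissue, averaged 3.47 ± 0.30 and 2.81 ± 0.44 in wild type on vehicle and finasteride and 3.46 ± 0.36 and 5.29 ± 0.75 in the mutant, and rose in the mutant by 1.84 ± 0.37 (adjusted p = 0.000936). Ccr9 averaged 3.47 ± 0.54 and 2.97 ± 0.39 in wild type and 3.26 ± 0.33 and 3.90 ± 0.11 in the mutant. Its genotype difference on finasteride was 0.93 ± 0.23 (0.00274), lost after quantile normalization, and its exons overlap Gm17200 over 269 bases on the same strand and Slc6a20a over 22 on the other. Ccr10 read 4.41, 3.89 and 3.21 in wild type on vehicle and 3.38, 3.80, 3.13, 3.61 and 3.14 on finasteride. Mutant values of Ccr10 were 4.18, 4.15 and 3.1 on vehicle and 4.54, 4.30, 4.54, 3.87 and 3.77 on finasteride. The Ccr10 groups overlapped in every comparison. Its genotype difference on finasteride of 0.79 ± 0.28 (0.0201) was lost without mutant finasteride 1 or 3 (0.0513 and 0.0519) and after quantile normalization.

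All 4 genes of the C and CX3C pairs were higher in the mutant than in wild type on finasteride (33.2% of all genes tested). Xcl1 among them reached the expressed level only through the mutant on finasteride, so its call is not independent of the rule. Of the 4, 1 was called as rising in the mutant after the drug, Cx3cr1, near the share of all genes (25.7%). Cx3cl1 (fractalkine), a membrane-bound ligand of endothelium and epithelium, was 10.31, 10.35 and 10.28 in wild type on vehicle and 9.72, 9.97, 9.89, 9.58 and 9.06 on finasteride. In the mutant it was 10.36, 10.28 and 10.35 on vehicle and 10.37, 10.79, 10.40, 10.49 and 10.50 on finasteride. All wild type finasteride libraries lay below the other 11. Cx3cl1 fell in wild type by 0.67 (SE 0.15, adjusted p = 0.00346; 0.0813 on 11 libraries) and differed by 0.18 in the mutant (0.344), an interaction of 0.85 ± 0.22 (0.00381; 0.058 on 11 libraries). Its receptor Cx3cr1, found on monocytes and macrophages, averaged 6.75 ± 0.27 and 6.42 ± 0.19 in wild type and 6.90 ± 0.14 and 7.91 ± 0.07 in the mutant. Cx3cr1 rose in the mutant by 1.01 ± 0.13 (2.42e-05).

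Xcl1 (lymphotactin), made by NK and activated T cells, averaged 3.21 ± 0.70 and 2.0 ± 1.08 in wild type on vehicle and finasteride and 4.60 ± 0.27 and 4.97 ± 0.10 in the mutant. Its receptor Xcr1, found on cross-presenting dendritic cells, averaged 3.99 ± 0.34 and 3.18 ± 0.88 in wild type and 4.42 ± 0.30 and 4.76 ± 0.11 in the mutant. For both, the genotype difference on finasteride was the only one to pass, 2.97 ± 0.41 for Xcl1 (adjusted p = 1.45e-05) and 1.57 ± 0.33 for Xcr1 (0.00062). The vehicle difference of Xcl1 was 1.38 (0.0563) and was called (1.68) after quantile normalization.

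**Figure D4:**
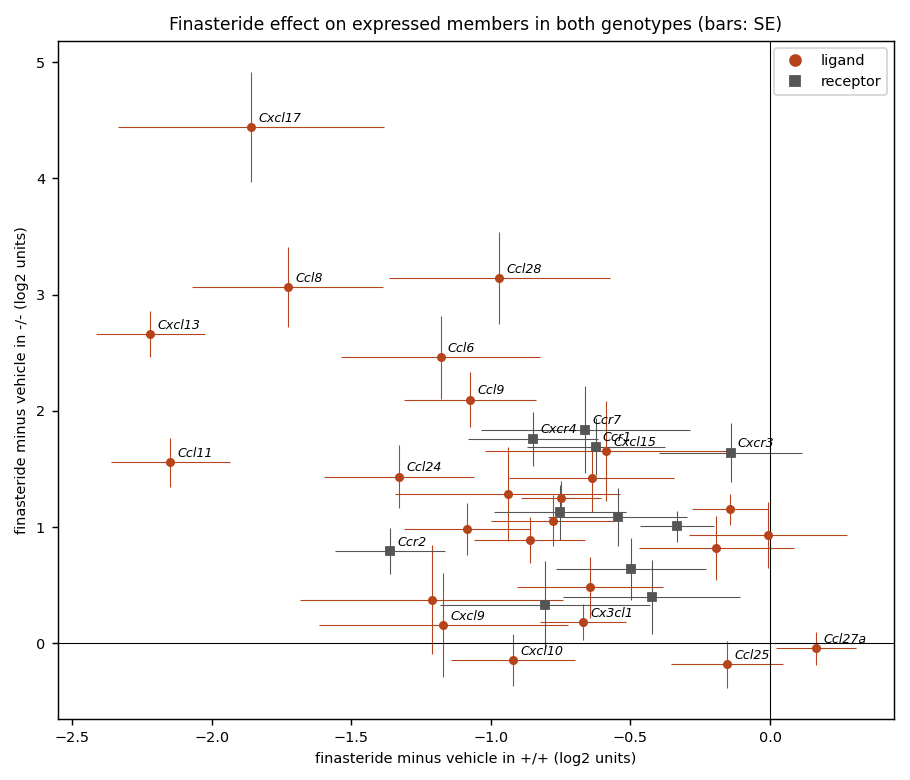
Finasteride minus vehicle in wild type (x axis) against the same difference in the mutant (y axis), in log2 units with SE bars, for the ligands (circles) and receptors (squares) plotted. Over all expressed members the difference was negative in wild type for 36 of 37 and positive in the mutant for 34 of 37, with Cxcl17 at -1.86 and 4.44 and Ccl27a alone to the right of 0.

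The 20 members under the level were tested in a fit to all 29535 genes without the filter, where low values may be shrunken. Of the 57, 45 were then higher in the mutant on finasteride (21.1% of all genes in this fit) and 0 were lower (16.2%), 31 rose in the mutant after finasteride (15.3%) and 17 fell in wild type (11.6%). The low members called higher in the mutant than in wild type on finasteride were Ccl1, Ccl3, Ccl17, Ccl19, Ccl20, Ccr3, Ccr6, Cxcl1, Cxcl2, Cxcl5 and Cxcr2. Ccl17, a ligand of Ccr4, differed there by 2.57 ± 0.34 (adjusted p = 9.93e-06) and fell in wild type by 1.59 (SE 0.40, 0.00821). Ccr6, a receptor of B cells and T helper cells, differed by 2.48 ± 0.35 (1.91e-05) and rose in the mutant by 1.73 ± 0.41 (0.00366). Cxcr2, Cxcl2 and Cxcl5 were also called as rising in the mutant. Ccl26, Ccl21b, Ccl21c, Ccl27b, Ccr4, Ccr8, Cxcl3, Cxcl11 and Cxcr1 passed in no comparison. At the edge of the rule, 28 of the 37 expressed members had every group mean at the level, and 9 lay under it in wild type on finasteride. Ccr7, Ccl22, Ccl4, Xcl1 and Ccr9 reached the level only through their high values in the mutant on finasteride. They are counted above among the members higher in the mutant on finasteride and among those with their highest mean in that group. Ccr7, Ccl22 and Ccl4 also count among the rises in the mutant, and these with Ccr9 among the positive interactions. None of these counts is independent of the rule, and the shares of members given above were not corrected for it. The members nearest the level were Ccr9 inside (mean 3.41) and Ccr4 outside (mean 3.25).

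Chemokine-related genes outside the naming rule were taken from lists fixed by role. Their counts stand beside the shares of all genes tested, of which 25.7% rose and 22.8% fell in the mutant after finasteride, 18.4% rose and 21.7% fell in wild type, and 33.2% were higher and 30.4% lower in the mutant on finasteride. Of 6 tested platelet chemokines, atypical receptors and related receptors (Cmklr1 among them), 3 rose and 1 fell in the mutant after finasteride, and 2 fell in wild type. On 11 libraries these were 3, 0 and 0. Pf4, a platelet and macrophage chemokine, was lower in the mutant on vehicle (-1.0 ± 0.19, adjusted p = 0.00101) and rose there by 1.43 ± 0.17 (1.04e-05). Darc, the atypical receptor that scavenges chemokines on venules and red cells, rose by 1.29 ± 0.24 (0.00048). Of 26 genes of receptor signalling, 12 rose and 2 fell in the mutant, 3 rose and 10 fell in wild type, and 20 were higher and 3 lower in the mutant on finasteride. On 11 libraries these became 8 and 1, 0 and 1, and 18 and 1. Dock2 and Vav1, which drive the movement of leukocytes, rose in the mutant by 1.61 ± 0.20 (1.62e-05) and 1.70 ± 0.21 (1.42e-05), and Pik3r5, a regulator of the kinase activated by chemokine receptors, by 2.77 ± 0.28 (2.2e-06). Elmo1, the partner of Dock2, was higher in the mutant on vehicle (0.95 ± 0.10, 7.95e-06) and on finasteride (1.0 ± 0.08, 4.78e-08).

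Cytokines that induce chemokines, with their receptors, did not share 1 direction: of 13 tested, 4 rose and 1 fell in the mutant, near the share of all genes for the rises, and 7 rose and 2 fell in wild type. On 11 libraries 3 of these rose and 0 fell in the mutant, and 0 passed in wild type. Tnf and Ltb rose in the mutant after finasteride by 1.64 ± 0.28 (adjusted p = 0.000206) and 2.15 ± 0.31 (5.07e-05). Ifngr1, a chain of the interferon-gamma receptor, was lower in the mutant than in wild type on finasteride (-1.20 ± 0.07, 2.82e-09), and Ifng, Il6, Il17a and Lta lay under the level. Of 13 NF-kB factors and feedback genes, 4 rose and 2 fell in the mutant, and 6 were higher and 3 lower there than in wild type on finasteride, counts not far from the shares of all genes. Bcl3 differed on finasteride by 2.01 ± 0.16 (3.72e-08), and Relb rose in the mutant by 1.26 ± 0.14 (3.77e-06). Of 7 genes that process or hold chemokines, 3 rose and 2 fell in the mutant, and 0 changed in wild type by limma. Dpp4, the peptidase that trims several chemokines, was higher in the mutant on vehicle (0.81 ± 0.09, 1.64e-05) and fell there after finasteride (-1.09 ± 0.08, 1.65e-07), while Mmp9 rose by 2.07 ± 0.30 (5.22e-05).

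Markers of leukocytes moved with the chemokines. Of all genes tested, 14.6% were higher and 17.5% lower in the mutant on vehicle, and 33.2% were higher there on finasteride. On 11 libraries 11% of all genes rose in the mutant and 5.06% fell in wild type. There 3.94% were higher and 5.33% lower in the mutant on vehicle, and 21.9% were higher in the mutant on finasteride. All 5 general leukocyte markers rose in the mutant after finasteride (25.7% of all genes tested) and 4 of 5 fell in wild type (21.7%), of which 5 and 0 passed on 11 libraries. Their summed log2 level was 9.99 to 10.03 in wild type on vehicle, 8.99 to 9.65 in wild type on finasteride, 9.72 to 9.79 in the mutant on vehicle and 10.9 to 11.7 in the mutant on finasteride, and sums below follow this group order. Of 13 macrophage and dendritic cell markers, such as Lyz2, 13 rose in the mutant, 7 fell in wild type and 8 were lower in the mutant on vehicle (11, 3 and 0 on 11 libraries). Their sums were 12.3, 11.4 to 11.9, 11.7 to 11.8 and 12.7 to 13.2. Of 12 T and NK cell markers, such as Lck, 9 rose in the mutant, 5 fell in wild type and 4 were higher in the mutant on vehicle (7, 1 and 0 on 11 libraries). Their sums were 8.31 to 8.41, 7.32 to 8.12, 8.82 to 9.01 and 9.72 to 10.4. Of 7 B and plasma cell markers, such as Igj, 7 rose in the mutant and 4 fell in wild type (7 and 2 on 11 libraries), with sums of 7.94 to 7.99, 6.20 to 6.96, 6.36 to 6.70 and 11.2 to 11.8. Of 5 mast cell markers, such as Kit, 3 rose in the mutant, 4 fell in wild type and 5 were higher in the mutant on finasteride (1, 4 and 5 on 11 libraries), with sums of 8.88 to 9.19, 7.56 to 8.2, 7.78 to 8.70 and 8.80 to 9.79. The part of these cells in the chemokine differences was not tested.

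Markers of other tissue cells moved as well. Of all genes tested, 25.7% rose and 22.8% fell in the mutant after finasteride, and 18.4% rose and 21.7% fell in wild type. On vehicle 17.5% were lower in the mutant, and 29.4% were positive in the interaction. On 11 libraries 11% rose in the mutant, 5.06% fell in wild type and 5.33% were lower in the mutant on vehicle. Of 6 fibroblast markers, such as Dcn, 5 were lower in the mutant on vehicle, 4 fell in wild type after finasteride and 3 rose in the mutant (1, 3 and 0 on 11 libraries). Their sums were 14.4 to 14.6, 13.5 to 14, 13.6 to 13.7 and 13.9 to 14.2. All 5 adipocyte markers, such as Fabp4, fell in wild type (4 on 11 libraries) with a median difference of -3.81, 2 rose in the mutant, and all 5 were positive in the interaction, with sums of 10.3 to 10.9, 6.13 to 9.64, 8.38 to 9.15 and 10.3 to 10.7. Of 6 blood endothelial markers, such as Pecam1, 5 rose in the mutant and 2 fell in wild type (5 and 1 on 11 libraries), with sums of 10.76 to 10.81, 10.37 to 10.8, 10.49 to 10.55 and 11.1 to 11.7. Of 4 lymphatic endothelial markers, such as Pdpn, 3 rose in the mutant and 2 fell in wild type (2 and 1 on 11 libraries), with sums of 9.58 to 10.05, 8.84 to 9.62, 8.79 to 9.01 and 9.40 to 9.73. Of 5 smooth muscle markers, such as Myh11, 5 rose in the mutant and 0 on 11 libraries, and 1 rose in wild type. In the mutant 0 of 4 basal epithelial markers rose and 1 fell, 1 of 4 urothelial markers rose and 1 fell, and 2 of 3 red blood cell markers rose, while in wild type 1 basal marker rose and 2 fell, 1 urothelial marker fell and 0 red blood cell markers passed. The luminal epithelial sum was 18.3 to 18.5, 17.8 to 18.5, 16.6 to 16.7 and 15.8 to 16.2, while 2 of its 6 genes rose and 1 fell in the mutant and 1 rose in wild type. The part of these cells in the chemokine differences was not tested.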

How the data were processed

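Prostate RNA was selected by its poly-A tails and sequenced from TruSeq libraries on a HiSeq2000, per the labels' protocols. The authors deposited normalized log2 values per gene. Per the submitters' processing notes the tools were DESeq, DESeq2, Cufflinks, TopHat and CASAVA 1.8.2, and the build was mm9. The step that wrote the table is not given in the sources used here. The base of the log was inferred, and depth is unknown, so no counting error can be given. Groups came from the labels. Running title numbers pair nothing.

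A model of the 4 group means was fitted with limma 3.58.1 in R 4.3.3 (trended, moderated variance) to the 16506 genes with a mean log2 value of at least 3.32. The Benjamini-Hochberg adjustment ran over all of these genes (threshold 0.05, two-sided tests). SEs are moderated, and ± beside a mean is the SD. The model was checked on simulated data. Alternatives were other filters (none, log2 of 5, linear mean of 10), quantile normalization, median centring, no variance trend, only the groups compared, a pseudocount of 8, leaving out each library, and the 11 libraries left after removing 5 near-mixtures. A library was a near-mixture when both weights exceeded 0.2 and the residual over 7686 genes with log2 values of at least 8 was under 0.1. Fits on 11 libraries with quantile normalization and without replicate 2 of both finasteride groups were added after seeing the data.

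The members and gene lists were chosen with earlier results of these data known. Values are given by group for each expressed member that passed a comparison, and by library for the 3 highest and 3 lowest fold changes among those in each comparison; Cxcl15, outside this rule, was added after its values were seen. Exon overlaps came from GENCODE M21, used for gene names and neighbours only. The mutated gene and the values of 1 expressed member are not reported here; that member stays in the counts.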

Additional observations from a re-analysis of the deposited data

Results flagged for a closer look

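Single libraries stood apart in 3 of 74 member and group combinations of 4 to 10 libraries; chance alone flags about 1 in 20. Ccl24 read 5.985 in mutant finasteride 2, with the nearest library of the group at 5.288. Cxcl16 read 8.349 in wild type finasteride 1, with the nearest at 7.797. Ccr1 read 4.668 in mutant finasteride 1, with the nearest at 5.094.

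The finasteride effect differed between genotypes for 30 expressed members (interaction, limma with adjustment over all genes tested), and every difference was positive, in mutant minus wild type. Of these 30 calls 24 were kept on 11 libraries and 21 after quantile normalization. Among CXC ligands it was 6.301 for Cxcl17, 4.882 for Cxcl13, 2.242 for Cxcl15, 2.001 for Cxcl14, 1.75 for Cxcl12, 1.296 for Cxcl16 and 0.7769 for Cxcl10. The monocyte ligands Ccl8, Ccl2 and Ccl7 gave 4.793, 2.071 and 1.834. The other inflammatory ligands Ccl11, Ccl6, Ccl9, Ccl24, Ccl22, Ccl5 and Ccl4 gave 3.705, 3.64, 3.169, 2.763, 2.227, 2.066 and 1.013. Homeostatic and membrane-bound ligands gave 4.111 for Ccl28, 1.129 for Ccl21a and 0.8521 for Cx3cl1.

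CC receptors gave 2.5 for Ccr7, 2.317 for Ccr1, 2.157 for Ccr2 and 1.14 for Ccr9, the last lost without wild type vehicle 2 or 3 or mutant vehicle 2. The other receptors gave 2.609 for Cxcr4, 1.882 for Cxcr6, 1.783 for Cxcr3, 1.637 for Cxcr5 and 1.339 for Cx3cr1.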

How the results depend on the processing

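Depth is unknown, so differences of low genes cannot be bounded by counting error. No paired analysis was possible because the labels carry no replicate numbers that groups share. Quantile normalization moved the median difference of all genes tested to 0.0633 (genotype on vehicle), 0.0629 (finasteride in wild type), -0.0913 (finasteride in the mutant), -0.1 (genotype on finasteride) and -0.159 (interaction), from medians near 0, and median centring moved it to 0.0803, 0.0443, -0.139, -0.107 and -0.214. Members called higher and lower under quantile normalization were 8 and 8 for genotype on vehicle, and 1 and 11 for finasteride in wild type. They were 19 and 3 for finasteride in the mutant, 29 and 2 for genotype on finasteride, and 21 and 2 for the interaction. Of all genes tested, 17.3% and 14.7% were called for genotype on vehicle, and 22.2% and 16.3% for finasteride in wild type. For the others the shares were 19.6% and 28.4%, 26.1% and 37%, and 22.1% and 33.6%. The interaction of Cxcl10 turned to -0.2416 under it and to -0.03311 on 11 libraries with it, and that of Ccl4 to -0.04499 on 11 libraries with it; the cause was not tested.

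On 11 libraries 0 members were higher and 5 lower for genotype on vehicle and 5 fell in wild type after finasteride. With quantile normalization as well, 1 was higher and 4 lower for genotype on vehicle, 3 fell in wild type, 11 rose in the mutant and 13 had a positive interaction. The share of all genes called was not taken in that fit, so these counts have no background beside them. A mean log2 value of at least 5 left 22 members, and therefore fewer calls: 16 rose in the mutant (24% of all genes under this filter), 19 were higher for genotype on finasteride (30.6%) and 19 had a positive interaction (26.8%). Leaving out 1 library at a time gave 1 to 4 members higher and 9 to 11 lower for genotype on vehicle (1 higher without mutant vehicle 2), 15 to 21 falling in wild type, 25 to 28 rising in the mutant, 33 to 35 higher for genotype on finasteride and 28 to 33 positive interactions, with 0 called in the other direction for the last 4. Without replicate 2 of both finasteride groups these were 3 and 11, 24, 27, 34 and 32. For the fits that left out 1 library or replicate 2, the shares of all genes were not taken either. The other filters, median centring, the fit without a variance trend, the fit of only the groups compared and the pseudocount of 8 kept every count of members called within 1.5 times its value.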
